A study of Mus musculus with 18 samples.

Results

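The regions described here carried a peak of H3K4me3, a histone mark of active and poised promoters, in 6 of 9 libraries of mouse prospermatogonia and none in the other 3, and those 3 came from both mutant genotypes. Peaks of the 9 deposited lists on chromosomes 1 to 19 were merged where they overlapped, which gave 179043 regions. A region was a member when it had a peak in wild-type libraries WT1, WT2 and WT3, in knockout library KO2 and in HxD libraries HxD1 and HxD3, and no peak in KO1, KO3 and HxD2. There were 1542 such regions, 0.861% of all merged regions and 4.01% of the 38493 that had a peak in those 6 libraries. Presence of a peak in all 9 libraries chose the members, so their presence and their fold values in these libraries are given as a description with no test.

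The cells were male fetal germ cells (prospermatogonia) at E17.5, positive for an Oct4-GFP reporter in every group, stored frozen and used at 4000 nuclei per library. The groups were Tet1+/+ (WT), Tet1-/- (KO) and Tet1HxD/HxD (HxD, in which the catalytic centre of TET1 is mutated), with 3 H3K4me3 libraries each, described as biological replicates and all under 1 batch label. Whether libraries pooled embryos is not given, so p-values measure the spread between these libraries. In CUT&RUN a nuclease tethered by the antibody cuts marked chromatin free for sequencing. The series also held 9 IgG libraries, which were not analysed here.

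H3K4me3 is written by the SET1 and MLL methyltransferase complexes and is densest where CG dinucleotides are frequent and unmethylated, as at most housekeeping and developmental promoters. TET1 oxidises 5-methylcytosine at such sites and also binds partners such as SIN3A and OGT independently of catalysis. In prospermatogonia the genome regains DNA methylation before birth, and much of the sequence between genes becomes methylated at that time.

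Among members at promoters, the start windows that could be read held fewer CG dinucleotides than those of regions in all 9 libraries. In the RefSeq promoter table (GRCm38.p6), 30 windows of 300 bp from 250 bp before to 50 bp after a coding gene start, of 27 genes, overlapped a member, and other promoter members were not read. They had a median of 6 CG (range 1 to 14; CG read on 1 strand, since it is its own reverse complement) and a GC content of 48.7%. The 12422 windows in regions in all 9 libraries had a median of 22 CG and 62.3% GC, and all 20084 windows 14 CG and 57.0%. Of the member windows 46.7% had 5 or fewer CG, against 4.80% in regions in all 9 and 31.4% of all windows. Windows in other regions missing from exactly 3 libraries were not compared, so whether fewer CG is particular to members was not tested. The windows of 3 of the 5 strongest promoter members are shown as examples, and none of them lies below the member median. The window of Gm5415, the next strongest after Kcnip4, had 3 CG and is not shown. They are given on the strand of the gene with CG in capitals: Kcnip4 (chr5:49285610-49285909, minus strand, 7 CG), Cav3 (chr6:112459255-112459554, plus strand, 6 CG) and Col6a6 (chr9:105828036-105828335, minus strand, 14 CG).
Kcnip4: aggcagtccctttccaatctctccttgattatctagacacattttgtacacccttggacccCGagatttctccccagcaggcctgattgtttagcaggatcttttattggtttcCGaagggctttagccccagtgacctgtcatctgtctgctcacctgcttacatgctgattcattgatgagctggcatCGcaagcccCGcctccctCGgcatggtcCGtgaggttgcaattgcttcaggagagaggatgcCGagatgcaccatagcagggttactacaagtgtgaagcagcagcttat
Cav3: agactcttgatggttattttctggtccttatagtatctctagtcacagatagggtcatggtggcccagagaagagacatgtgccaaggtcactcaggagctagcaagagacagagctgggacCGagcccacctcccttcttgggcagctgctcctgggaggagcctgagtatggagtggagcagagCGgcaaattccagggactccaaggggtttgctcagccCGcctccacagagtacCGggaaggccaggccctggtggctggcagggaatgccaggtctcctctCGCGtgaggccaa
Col6a6: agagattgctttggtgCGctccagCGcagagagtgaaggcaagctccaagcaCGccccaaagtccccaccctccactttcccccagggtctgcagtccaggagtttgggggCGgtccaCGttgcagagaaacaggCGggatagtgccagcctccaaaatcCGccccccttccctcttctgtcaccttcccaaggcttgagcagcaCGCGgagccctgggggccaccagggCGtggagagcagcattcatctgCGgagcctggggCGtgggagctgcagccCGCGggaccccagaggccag
The windows of Kcnip4 and Cav3 are near the member median of 6 CG, and that of Col6a6 has the most of any member window. The RefSeq table gives promoters only, and no sequence of the intergenic members is shown.

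Among all ways in which a region could be missing from exactly 3 of the 9 libraries, the set KO1, KO3 and HxD2 was the most frequent. There were 7897 autosomal regions missing from exactly 3 libraries, spread over 84 possible sets with a median of 25.5 regions, and this set held 19.5% of them. The next largest was KO1, HxD2 and HxD3 with 1016 regions, followed by KO1, HxD1 and HxD2 with 454. The sets that follow genotype were smaller. Missing from the 3 KO libraries and no other were 177 regions, and from the 3 HxD libraries and no other 186. The mirror image, a peak in KO1, KO3 and HxD2 and in none of the other 6, held 13 of the 10365 regions found in exactly 3 libraries, where 3203 were found in the 3 WT libraries alone. On chromosome X, which had no part in the choice of members, 25 of 622 regions in the 6 libraries were missing from the same 3, or 4.02%, close to the autosomal 4.01%.

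**Figure D1:**
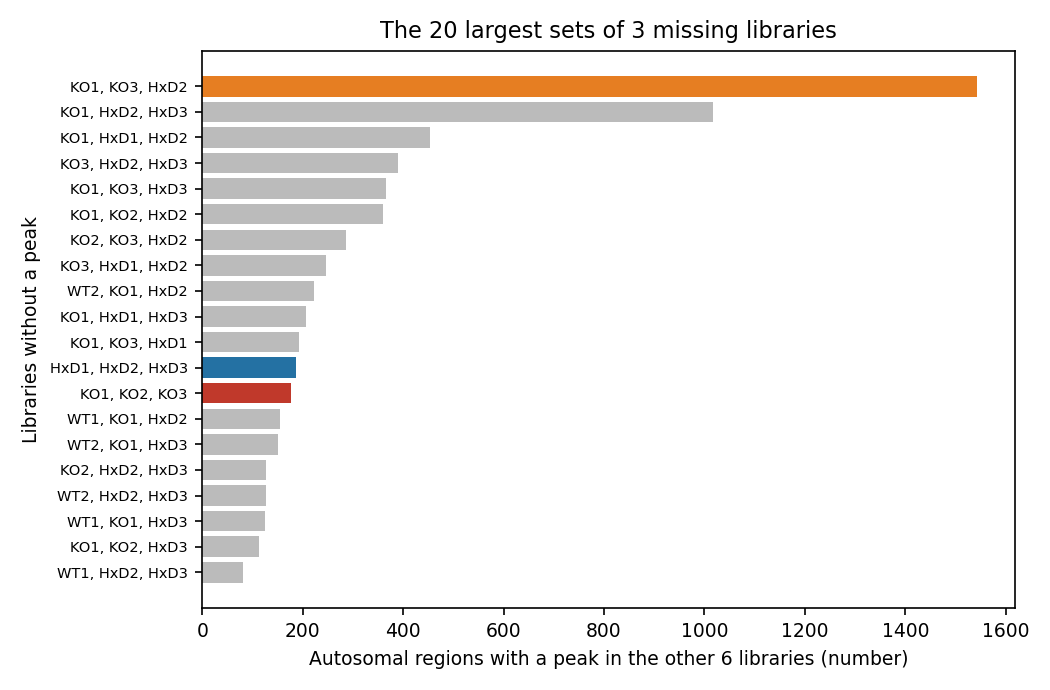
Number of autosomal regions (horizontal axis) missing from each set of exactly 3 libraries (vertical axis), for the 20 largest of 84 sets; orange is the set described here, red the 3 KO and blue the 3 HxD libraries. The orange bar stands at 1542, the blue at 186 and the red at 177.

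The count moved with the length of the lists. When every list was shortened to its 48468 peaks of highest −log10 q, the length of the shortest list, there were 291 members, 4.72% of the 6164 regions then missing from exactly 3 libraries. The set was still the most frequent of the 84, with the 3 WT libraries next at 278, and was also first when peaks needed a −log10 q of at least 5 (1349 members, next 952). With 1 library left out of the rule it was 2406 without KO1, 3618 without KO3, 2460 without HxD2, 2317 without HxD1 and 2605 without HxD3.

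The 3 libraries lost regions to different extents. Of the 38493 regions in the other 6, 25421 had a peak in all 9. KO1 was the library missing most often on its own, from 4277 regions, then HxD2 from 2444 and KO3 from 956. Pairs of them were missing from 2075 regions (KO1 and HxD2), 916 (KO1 and KO3) and 862 (KO3 and HxD2). These pairs lie just outside the rule, and by definition the remaining library had a called peak there. The median fold of that peak was 5.91 in KO3 (median −log10 q 9.01), 5.90 in HxD2 (5.87) and 5.97 in KO1 (6.79). How many of these peaks lay near the limit of calling was not counted. Just inside the rule, the lowest −log10 q of a member was between 2.02 and 2.04 in each of the 6 libraries, and 10 to 52 of the 1542 members lay below 3 in any one of them.

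Most members lay between genes, as did most regions missing from exactly 3 libraries, and members lay further from coding genes. Of the 1542, 1173 (76.1%) were intergenic, 321 (20.8%) lay in gene bodies and 48 (3.11%) lay within 1 kb of a coding gene start. Over all regions these shares were 58.8%, 31.5% and 9.68%, and over the regions in all 9 libraries 32.2%, 18.3% and 49.5%. Over the 7897 regions missing from exactly 3 libraries, which include the members, they were 69.4%, 26.8% and 3.81%. By place, members made up 6.88% of the 17043 intergenic regions that had a peak in the 6 libraries. The share was 4.04% among 7947 gene-body regions and 0.355% among 13503 promoter regions. The intergenic members were at a median of 104 kb from the nearest coding gene, against 60.2 kb for all intergenic regions and 30.1 kb for those in all 9 libraries. For intergenic regions missing from exactly 3 libraries it was 63.0 kb. More than 100 kb from any coding gene were 598 members, or 38.8%, against 23.9% of all regions and 28.0% of regions missing from exactly 3 libraries. A noncoding gene of RefSeq overlapped 197 of the intergenic members (16.8%), near the 18.2% of all intergenic regions. The median merged width of a member was 1227 bp (quartiles 1045 and 1446). It was 545 bp over all regions, 1176 bp over regions missing from exactly 3 libraries and 2189 bp over regions in all 9, so members were of the width of other regions in 6 libraries.

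The genotype sets had a similar composition. Of the 177 regions missing from the KO libraries alone 72.9% were intergenic, and of the 186 missing from the HxD libraries alone 71.5%. Distance differed more. More than 100 kb from a coding gene were 31.6% of the KO set and 17.2% of the HxD set, with no test of these differences, since all 3 sets were chosen from the same peak lists.

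Members were found on every autosome, at 2.46% to 5.97% of the regions in the 6 libraries. The shares were highest on chromosomes 14 (96 of 1609), 3 (130 of 2303, 5.64%) and 1 (134 of 2671, 5.02%) and lowest on chromosomes 11 (58 of 2354) and 15 (41 of 1616, 2.54%). Chromosomes 14, 3 and 1 held 850, 983 and 1204 coding genes, and chromosomes 11 and 15 held 1609 and 776. Chromosome 15 thus had a low share with the fewest coding genes of those named. Among intergenic regions alone the range was 4.71% on chromosome 15 to 8.71% on chromosome 3.

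Fold enrichment, the authors' value per peak, read here as the ratio of summit signal to a background (IgG or local, which is unknown), was moderate at members and higher in the WT lists. The median over the 1542 members was 7.88 in WT1, 7.68 in WT2 and 9.82 in WT3, and 6.84 in KO2, 6.08 in HxD1 and 6.62 in HxD3. All 3 WT medians therefore lay above those of the 3 mutant libraries that had the regions. Within its own list the median member stood at percentile 57.1 in WT1, 54.0 in WT2 and 68.3 in WT3, and at 42.0 in KO2, 35.5 in HxD1 and 37.8 in HxD3. The median member thus lay above the middle of the WT lists and below the middle of the mutant ones. A percentile also depends on how many weak peaks a list holds. The WT lists held 73441 to 114945 regions and those of KO2, HxD1 and HxD3 54914 to 72785, so percentiles are not a measure of strength across lists. The lowest of the 6 values fell in HxD1 for 391 members, in KO2 for 303 and in HxD3 for 260, and the highest in WT3 for 732. At 309 members of any place (20.0%) every WT value was above every value of KO2, HxD1 and HxD3. The same order held at 8.65% of intergenic regions in all 9 libraries, a set that differs from the members in place and fold. At 22 members the order was reversed, and a share over other regions was not computed for this. Peaks were also longer in WT at members, with a median covered length of 875.5 bp, 839 bp and 963 bp in WT1 to WT3 against 551.5 bp in KO2, 566 bp in HxD1 and 512 bp in HxD3. Fold depends on the background of each library, so values are best compared within a library.

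**Figure D2:**
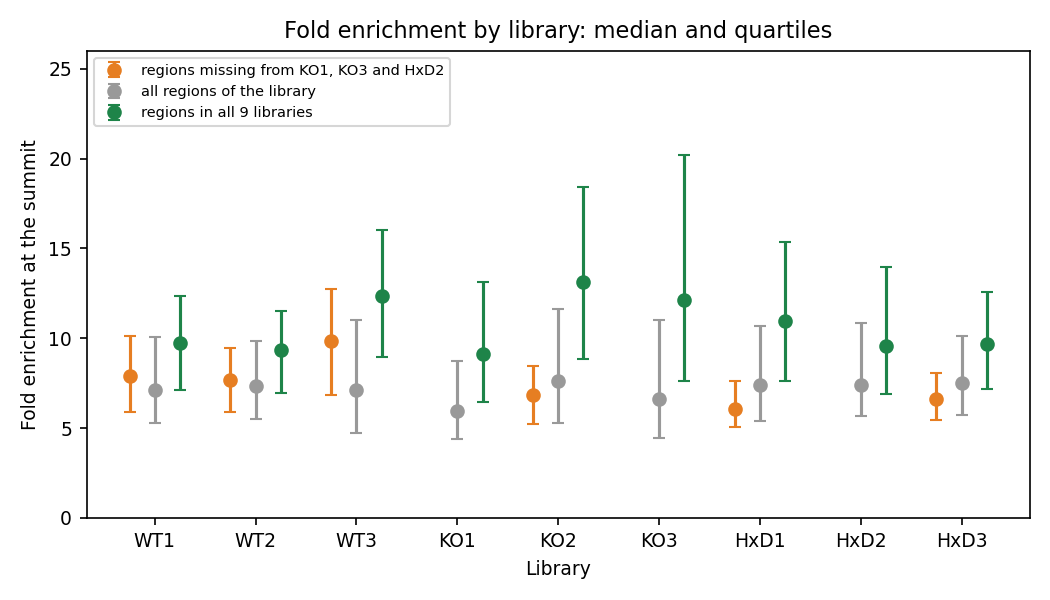
Fold enrichment at the summit (vertical axis, linear ratio) in each library (horizontal axis), as the median (point) and quartiles (bars) over members, over all regions of the library and over regions in all 9 libraries. KO1, KO3 and HxD2 have no member value; members run from a median of 6.08 in HxD1 to 9.82 in WT3 and lie below the regions in all 9 in each of the 6 libraries.

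The share of regions missing from KO1, KO3 and HxD2 was highest where the lowest of the 6 fold values was 4 to 5 and fell above that, and at each level below 10 it was larger between genes than at promoters. Between genes it was 7.14% below a lowest fold of 3, 8.80% from 3 to 4, 9.45% from 4 to 5, 7.30% from 5 to 6, 4.44% from 6 to 7, 3.18% from 7 to 8 and 0.858% from 8 to 10. At promoters the highest share was 0.712%, below 3. No member reached a lowest fold of 10, and the median lowest fold was 4.43 in members and 5.62 in regions in all 9.

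**Figure D3:**
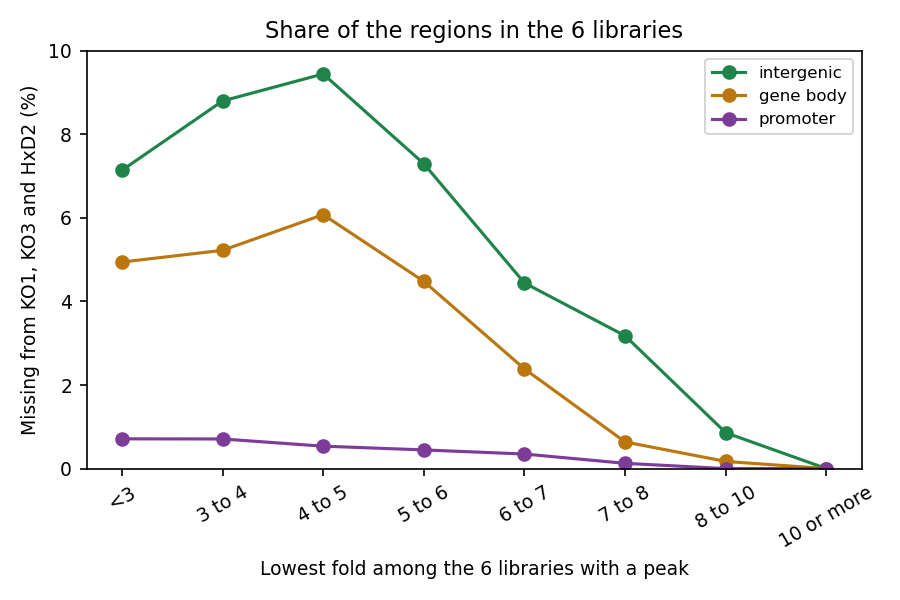
Percent of the 38493 regions in the 6 libraries that were missing from KO1, KO3 and HxD2 (vertical axis), by the lowest fold among the 6 libraries (horizontal axis) and by place. The intergenic line peaks at 9.45% and the promoter line stays at or below 0.712%.

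The 10 strongest members, ranked by the lowest of their 6 fold values, were intergenic in 9 cases. The first lay on chromosome 13 (79161772 to 79163948), 963 kb from Nr2f1, an orphan nuclear receptor of neural development, and overlapped the noncoding gene Gm25383. Its fold was 17.53, 14.5 and 16.2 in WT1, WT2 and WT3, 12.0 in KO2, 9.38 in HxD1 and 13.9 in HxD3. The 3 WT libraries were the highest and HxD1 the lowest.

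The second lay on chromosome 3 (78884341 to 78885557), 177 kb from Rapgef2, an exchange factor for the GTPase Rap. Its fold was 11.2, 9.11 and 12.0 in WT, 8.74 in KO2, 11.9 in HxD1 and 11.8 in HxD3, so HxD libraries lay within the WT range and KO2 just below it. The third lay on chromosome 12 (47413562 to 47414895), 594 kb from Nova1, a neuronal splicing regulator. There the fold was 13.9, 15.6 and 13.0 in WT, 14.0 in KO2, 12.0 in HxD1 and 8.54 in HxD3, with KO2 inside the WT range.

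The others were near Cox7c, a subunit of cytochrome c oxidase (chromosome 13, 86377960 to 86379623), between Gbe1, the glycogen branching enzyme, and Robo1, an axon guidance receptor (chromosome 16, 70982797 to 70985115), near Gpat3 (chromosome 5, 101059122 to 101060553), Grik2, a kainate receptor subunit (chromosome 10, 47602673 to 47603915), Gm9195 (chromosome 14, 72399233 to 72400584) and Gpc5, a glypican (chromosome 14, 114882887 to 114884122). The single one that overlapped a coding gene was at Cntn4, a neuronal adhesion protein (chromosome 6, 106163098 to 106164460). Its fold was 14.9, 12.0 and 9.36 in WT, 12.0 in KO2, 10.4 in HxD1 and 8.35 in HxD3. The WT libraries spread widely at the region near Gpat3, with 16.0, 10.2 and 8.08. All 3 WT values lay above all 3 mutant values at the regions near Nr2f1, Gm9195 and Gpc5, and the groups overlapped at the other 7.

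**Figure D4:**
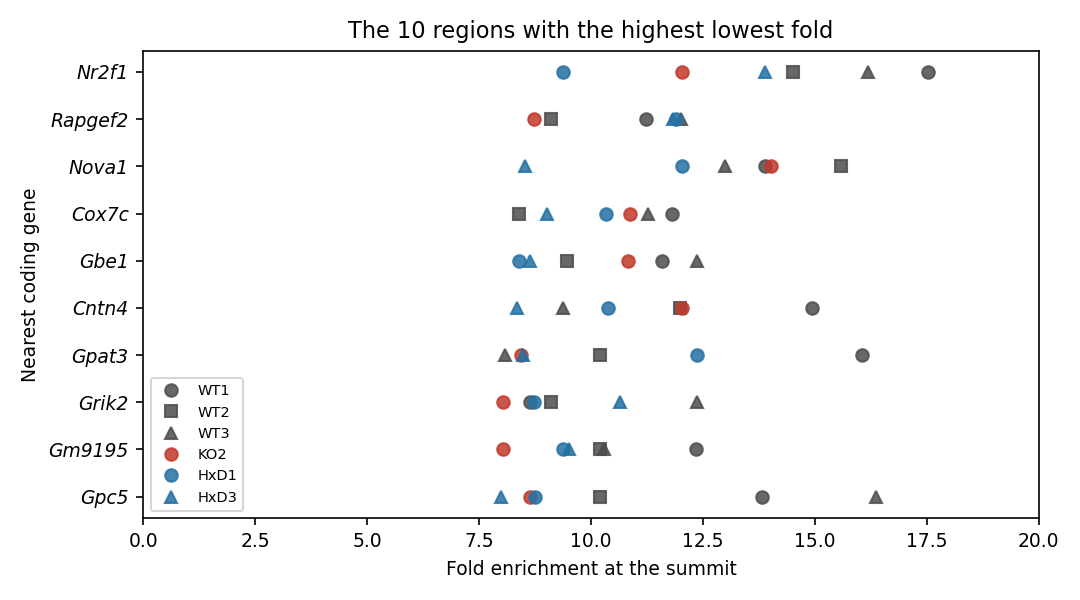
Fold enrichment at the summit (horizontal axis) in the 6 libraries with a peak, for the 10 members with the highest lowest fold, named by their nearest coding gene (vertical axis). Grey is WT, red KO2 and blue HxD; at Nr2f1 the WT points lie between 14.5 and 17.53, right of the 3 mutant points.

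The longest members by covered length were also intergenic, all 10 of them. The longest lay on chromosome 5 (60673600 to 60676373), 1132 kb from G6pd2 and 2540 kb from Pcdh7, a protocadherin, and overlapped the noncoding gene Gm3372. It covered a median of 2350 bp over the 6 libraries, with a fold of 12.3, 12.3 and 16.7 in WT, 7.63 in KO2, 10.0 in HxD1 and 10.4 in HxD3, so all WT values were above all mutant values. The next were near Fsip2, a gene of the sperm fibrous sheath (chromosome 2, 83111092 to 83113335, median 1774 bp), Hspb8, a small heat shock protein (chromosome 5, 116385616 to 116388692, 1706 bp), and Tenm3, a teneurin of neuronal wiring (chromosome 8, 51362019 to 51364803, 1681 bp). The region near Tenm3 was uneven among WT libraries, with a fold of 10.1, 3.74 and 10.3, and 10.0 in KO2. The remaining members of the 10 longest had median covered lengths of 1509 to 1628 bp, and the regions near Nr2f1 and Gbe1 were among them.

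Genes nearest to several members included adhesion and receptor genes of the nervous system. The 1542 members had 1148 different nearest coding genes, and 234 of these genes were nearest to 2 or more. Edil3, an extracellular integrin ligand, and Pcdh7 were nearest to 9 each, Pcdh9, another protocadherin, and Slitrk1, a synaptic adhesion protein, to 8 each, and Epha7, an ephrin receptor, Igfbp7 and Lrrc4c to 7 each. The same genes were also nearest to many other regions. In the 6 libraries Edil3 had 19 regions, Pcdh7 20, Pcdh9 32, Slitrk1 18, Epha7 26, Igfbp7 30 and Lrrc4c 24, so members made up 23.3% of them at Igfbp7 to 47.4% at Edil3. These genes were named for their high counts, and their shares are a description. Among the gene lists, 80 members (5.19%) had their nearest gene among 68 synapse and adhesion genes, 32 of which had at least 1. This share was 3.38% for all regions and 1.63% for the regions in the 6 libraries. Among intergenic regions alone it was 4.52% of members, 3.56% of all regions and 1.87% of those in the 6 libraries. The distance to such a gene could be large, 1490 kb in the case of Grik2 and 0 in the case of Cntn4, which the region overlaps.

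Other lists had few members. Developmental regulators were nearest to 17 members (1.10%, against 0.994% of all regions), at 13 of 92 genes, among them Tbx3 and Isl1, transcription factors of limb and heart, Foxd3, of the neural crest, and Emx2, of the urogenital system. Germ cell and pluripotency genes were nearest to 3 members (Id4, Klf4 and Zbtb16), 0.195% of members against 0.287% of all regions. For Sertoli genes it was 2 members (Inhbb and Sox9), 0.1297% against 0.119%, and for Leydig and interstitial genes 2 (Col3a1 and Nr2f2), 0.1297% against 0.168%. Endothelial and blood genes had 3 (at Cdh5 and Kdr), 0.195% against 0.154%, and housekeeping genes 2 (Ndufa4 and Top1), 0.1297% against 0.162%. Meiotic genes had none, against 0.0547% of all regions. Among regions in the 6 libraries the share was 1.34% for developmental regulators, 0.317% for germ cell and pluripotency genes and 0.138% for Sertoli genes. It was 0.184% for Leydig and interstitial, 0.182% for endothelial and blood, 0.190% for housekeeping and 0.0701% for meiotic genes. Members were below these shares except for endothelial and blood genes, but apart from developmental regulators each list had 3 members or fewer. Among intergenic regions alone the order turned for Sertoli genes, at 0.171% of members against 0.135% in the 6 libraries. It also turned for endothelial and blood genes (0.256% against 0.276%), so no direction is read from counts this small.

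Runs of members within 100 kb of each other numbered 152 and held 320 members. The longest was a run of 5 around Hand2, a transcription factor of heart and limb, on chromosome 8. It began 15.1 kb before the gene with a region that overlapped the noncoding gene Hand2os1 (57304872 to 57305910). A second region lay 0.495 kb past Hand2 (57325012 to 57326485), with 3 more up to Scrg1 (57402545 to 57403958, 57428826 to 57430178 and 57450128 to 57451217). In the region beside Hand2 the fold was 5.97, 6.56 and 7.98 in WT, 6.95 in KO2, 5.74 in HxD1 and 5.03 in HxD3, with WT and mutant values overlapping.

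The strongest of the 48 promoter members, with a window shown above, was at a start of Kcnip4, a potassium channel interacting protein, on chromosome 5 (49284707 to 49286450), with a fold of 10.5, 11.3 and 16.7 in WT, 7.47 in KO2, 8.61 in HxD1 and 7.74 in HxD3. All 3 WT values were above the mutant ones. The next were at Gm5415 (chromosome 1, 32546406 to 32547585), Cav3, the caveolin of muscle (chromosome 6, 112458986 to 112460474), Oas3, an antiviral oligoadenylate synthetase (chromosome 5, 120775100 to 120776719), and Col6a6, a collagen VI chain (chromosome 9, 105827424 to 105828727). At Cav3 the fold was 9.14, 6.96 and 11.9 in WT, 6.44 in KO2, 7.06 in HxD1 and 6.44 in HxD3, so WT2 lay among the mutant values. At Col6a6 it was 11.6, 8.40 and 12.0 in WT, 12.0 in KO2, 6.40 in HxD1 and 9.80 in HxD3, with KO2 level with the highest WT value. The other named promoters were those of Olfr1361 and Olfr905, olfactory receptors, Npc1l1, the intestinal cholesterol transporter, Myoc, myocilin, and Best3, a bestrophin, with lowest fold values of 5.97 to 6.33.

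The 3 libraries without the regions also had the lowest shares of intergenic regions in their lists. The share of intergenic regions in the list was 45.3% in HxD2, 48.7% in KO1 and 48.9% in KO3, then 51.6% in HxD3, 52.1% in HxD1, 52.8% in KO2 and 58.1% to 59.4% in WT. With members left out it was 50.9% in HxD3, 51.5% in HxD1, 52.3% in KO2 and 57.7% to 59.2% in WT. The share reads the same peak presence as the rule, so leaving members out does not make it independent. Of regions in the other 6 libraries, 2653 intergenic ones were missing from KO1 alone and 1578 from HxD2 alone. With lists of equal length the same 3 libraries were again the lowest, at 45.3% in HxD2, 44.9% in KO1 and 45.3% in KO3, against 47.1% to 48.7% in the other mutant and 52.2% to 53.1% in the WT libraries. The median fold of the intergenic regions of a list was 5.48 in KO1, 5.76 in KO3 and 6.55 in HxD2, and 6.73 to 6.96 in the other 6 libraries. With a −log10 q of at least 5 that order did not hold, since HxD1 (7.06) lay below KO1 (7.12) and HxD2 (7.26). These shares were looked at after the members were known and were not tested.

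At the 25421 regions in all 9 libraries, none of which is a member, promoters and intergenic regions were alike in WT and unlike in the mutants. The median fold at the 12594 promoter regions was 0.983, 1.04 and 1.00 times that at the 8187 intergenic regions in WT1, WT2 and WT3. The ratio was 1.29 in HxD3, 1.50 in HxD1, 1.57 in KO1, 1.59 in KO2, 1.70 in HxD2 and 2.17 in KO3. KO3 and HxD2 were thus the most promoter-weighted, and KO1 was next to KO2, which had the members. With lists of equal length KO1 was at 1.52 and KO2 at 1.47. The median fold of the shared intergenic regions was lowest in KO1 (7.54), HxD2 (7.59) and KO3 (8.53), with HxD3 at 8.54, so KO3 and HxD3 were nearly equal. With a −log10 q of at least 5 that order did not hold, since HxD3 (9.22) lay below KO3 (9.46).

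**Figure D5:**
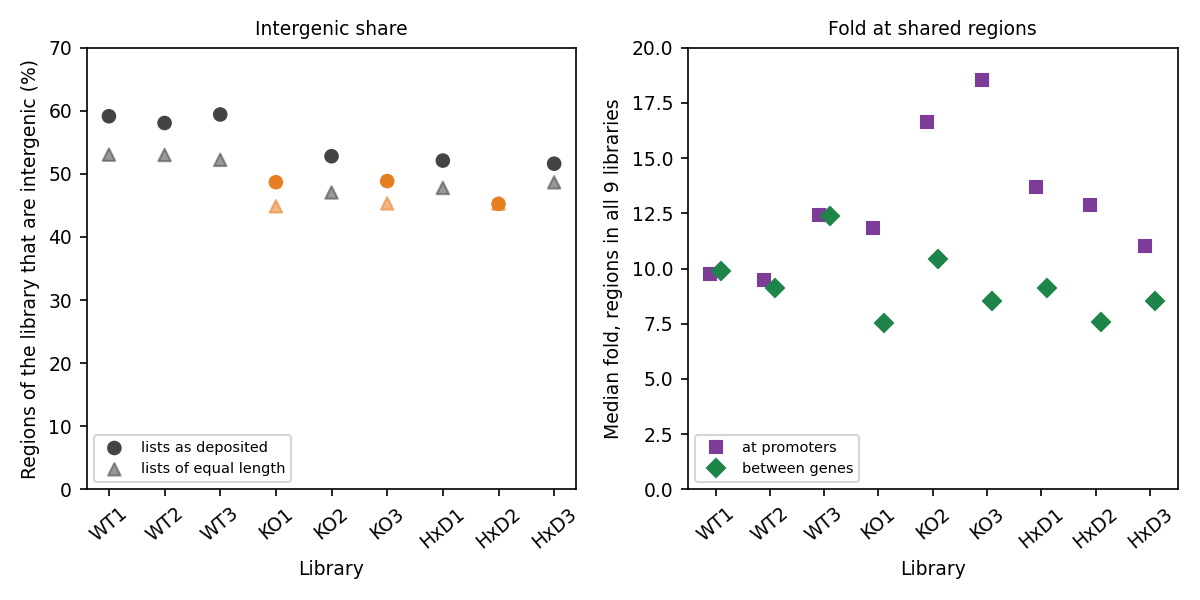
Left, percent of the regions of each library that are intergenic (circles, lists as deposited; triangles, lists of equal length; orange, KO1, KO3 and HxD2); right, median fold at the promoter and the intergenic regions present in all 9 libraries. Orange points are the lowest on the left, and on the right promoter and intergenic medians coincide in WT and are furthest apart in KO3 (18.5 and 8.53).

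Shared regions near members also ranked lower in the mutants than in WT, less so when only intergenic ones were taken. For 1022 members a region in all 9 libraries lay within 100 kb. The median of these neighbours stood at percentile 56.0, 52.0 and 55.5 of the shared regions in WT1, WT2 and WT3, at 41.4 in KO2, 43.7 in HxD1 and 47.2 in HxD3, and at 42.8 in KO1, 36.2 in KO3 and 37.7 in HxD2. Intergenic neighbours alone (519), ranked among shared intergenic regions, stood at 54.5, 53.2 and 53.4 in WT1, WT2 and WT3. They stood at 47.6 in KO1, 41.1 in KO3 and 42.5 in HxD2, against 45.0 in KO2, 50.6 in HxD1 and 50.6 in HxD3. KO3 and HxD2 were the lowest in both, and KO1 was above KO2. In KO1 the nearest peak to a member was at a median of 15.0 kb, in KO3 at 15.8 kb and in HxD2 at 22.8 kb, and 51, 62 and 21 members had one within 1 kb. These distances also depend on the length of a list, and HxD2 had the shortest. They were not computed for other regions missing from the same libraries, so they are not read as a trait of members.

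Likeness of fold at shared regions was weak between any libraries. Across the 25421 regions, which share a library within each value and are not independent, Spearman's rho of the fold was 0.141 to 0.158 among the 3 WT pairs, 0.0158 to 0.117 between WT and mutant libraries, 0.342 to 0.431 among KO and 0.272 to 0.364 among HxD libraries. Among KO1, KO3 and HxD2 it was 0.367 to 0.482, and among KO2, HxD1 and HxD3 0.272 to 0.334. Pairs across these sets reached the same level, with 0.431 for KO2 and KO3, 0.405 for KO3 and HxD1 and 0.399 for KO2 and HxD2, above the 0.367 of KO1 and HxD2. Within intergenic regions alone rho was 0.144 to 0.175 among WT and 0.153 to 0.295 among the 15 mutant pairs, so these ranges overlapped. These correlations are a description.

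The files hold no read counts, so depth is unknown, but the −log10 p that a peak of given fold reaches rises with the reads behind it. Among peaks with a fold of 7 to 8, its median was 11.0 in HxD2, the lowest of all, 12.6 in KO1 and 15.3 in KO3, the highest after WT3 (15.7), and 11.9 to 13.4 in HxD3, HxD1 and KO2. The fold below which the weakest 5% of regions lay was 3.15 in KO3, the lowest of all, 3.63 in KO1 and 4.10 in HxD2, against 3.64 to 4.01 in KO2, HxD1 and HxD3. Lists held 48468 peaks in HxD2, 67973 in KO3 and 69919 in KO1, and 60726 in HxD3, 66289 in HxD1 and 78045 in KO2, so both HxD lists that had the members were shorter than those of KO1 and KO3. The length covered by all peaks was 44.8 Mb in HxD2 and 49.4 Mb in KO1, the lowest values, then 52.7 Mb in HxD3, 67.8 Mb in KO3, 67.9 Mb in HxD1 and 71.4 Mb in KO2. KO1 stood apart in peak length, with a median of 436 bp against 652 to 798 bp in the other 8 libraries. With lists of equal length, as given above, there were 291 members. Beyond that, the part of depth and peak length in the result was not tested.

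Promoters of somatic marker genes were covered less in KO1 and HxD2 than elsewhere, and not in KO3. Mean covered length within 5 kb of the starts of 56 Sertoli, Leydig or interstitial, and endothelial or blood genes was 1560 bp in KO1, 1687 bp in HxD2 and 2302 bp in KO3, against 2061 bp in HxD3, 2247 to 2825 bp in WT, 2365 bp in KO2 and 2440 bp in HxD1. Developmental regulators had the same lowest 3, KO1 (3128 bp), HxD2 (3562 bp) and HxD3 (4002 bp), with KO3 at 4731 bp. Germ cell and pluripotency genes were covered most in KO3 (3615 bp) and least in HxD3 (2400 bp), and housekeeping genes most in KO3 (3032 bp) and least in WT1 (1626 bp). A promoter peak was found in each library at 14 to 16 of 18 Sertoli genes, 12 to 16 of 20 Leydig or interstitial genes, 11 to 14 of 18 endothelial or blood genes and 25 to 29 of 30 germ cell genes, of which 14, 10, 11 and 23 genes had one in all 9. Dazl and Pou5f1, germ cell genes, were covered in all 9 and Piwil2, of the piRNA pathway, was at 0 in 7. Ptprc, which defines blood cells, was at 0 in all 9, while Tal1, a blood and endothelial factor, was covered in all 9 by 1750 to 4765 bp. Since H3K4me3 also marks silent developmental promoters, these peaks do not show expression. In such bulk samples fewer cells with a mark and less mark per cell cannot be told apart. The part of other cell types in the result was not tested.

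None of 5 values per library differed between the 3 genotypes beyond the spread of the libraries. The covered lengths come from the same peak lists as the rule, so leaving members out does not make them independent of it. Members were cut only from libraries that held them. At developmental regulators this took WT1 from 4911 to 4891 bp and left KO1 at 3128 bp. Regions in all 9 libraries had a median fold of 10.5 ± 1.64 (WT), 11.5 ± 2.103 (KO) and 10.1 ± 0.779 (HxD) (SD, n = 3 each; exact permutation F test, p = 0.611). Covered length at somatic marker promoters was 2504 ± 294, 2076 ± 447 and 2063 ± 377 bp (exact p = 0.375), at developmental regulators 5071 ± 459, 4206 ± 934 and 4111 ± 611 bp (exact p = 0.325), at germ cell and pluripotency genes 2640 ± 302, 3019 ± 578 and 2767 ± 414 bp (exact p = 0.571) and at housekeeping genes 1905 ± 383, 2521 ± 493 and 2176 ± 291 bp (exact p = 0.221). All adjusted p were 0.611 (Benjamini-Hochberg over the 5, exact permutation test). Within KO the spread in somatic promoter coverage, from 1560 to 2365 bp, was larger than the difference between the KO and WT means.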

How the data were processed

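H3K4me3 CUT&RUN peak lists of 9 libraries were analysed, 1 deposited list per library. The build was mm10, per the submitters' processing notes, which name MACS2 2.1.0, deepTools 3.5.1, Bowtie2 2.5.0, Trim Galore, bedtools 2.27.1 and SAMtools 1.16.1 with no role or order. Their settings are not given in the sources at hand. Each peak has the authors' score, the authors' fold enrichment (column 7, read here as a linear ratio at the summit over the caller's background; whether IgG or local signal served as background is unknown) and the authors' −log10 p and −log10 q. The smallest deposited −log10 q was between 2.00 and 2.02, so a region without a peak may still hold signal. No reads or coverage were used. At most 6 peaks had equal coordinates in any pair of lists.

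Peaks sharing at least 1 bp were merged, and the highest fold of a library in a region was its value. Coordinates are mm10, 1-based. Coding genes came from RefSeq (GRCm38.p6, the same assembly), starts from its promoter table, and for 4205 of 20661 coding genes without an entry both gene ends were used. Promoters lie within 1 kb of a start. Single values per library were compared by a two-sided exact permutation test of F over 3 genotypes (1680 arrangements, smallest possible p 0.00357). For gene lists the start with most covered bp was taken, and members were left out of the compared means. The merging and the test were checked on simulated lists. Members and lists were chosen with earlier results of these data known. Regions were named by fixed ranks: the 10 highest by lowest fold, the 10 longest by covered length, the 10 strongest promoters, members nearest to a listed gene and the longest run. The intergenic shares and the ratios were chosen after values were seen. Alternatives were stricter peaks, wider merging, 200 bp covered, lists of equal length, other windows, a replicate block and each library left out. Computations used Python 3.11.15, numpy 2.4.6, pandas 2.3.3 and scipy 1.17.1.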

Additional observations from a re-analysis of the deposited data

How the results depend on the processing

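The 1542 members became 291 when lists had equal length. They were 1349, 1493 and 1542 with a −log10 q of at least 5, merging of peaks up to 500 bp apart and at least 200 bp covered. Leaving out 1 library, which makes the rule easier to meet, gave 1586 to 3618, with 2406 without KO1, 3618 without KO3, 2460 without HxD2, 2317 without HxD1 and 2605 without HxD3. The intergenic share of 76.1% was 81.1% with lists of equal length, 73.6% with a promoter window of 5 kb and 72.7% to 77.9% with 1 library left out. As a share of regions missing from exactly 3 libraries, the members went from 19.5% to 17.3% with stricter peaks and 4.72% with lists of equal length, a measure added after the data were seen. No p of the 5 tested values crossed 0.05 under any alternative run, the lowest being 0.0536 for housekeeping promoters with lists of equal length. With the replicate number as a block (216 arrangements, smallest p 0.0278) p was 0.667 for the median fold at shared regions and 0.444, 0.389, 0.583 and 0.306 for somatic, developmental, germ cell and housekeeping promoters. Correlations of deviations in covered length between same-numbered libraries were −0.413 to 0.200. The coverage of a whole library enters these deviations, so whether the numbers pair the libraries was not settled. A peak list shows no signal below its threshold, which limits what a missing peak means.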
